A study of Mus musculus with 9 samples.

Results

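Transcripts of 10 enzymes of serine, glycine and one-carbon metabolism were followed in mouse embryonic stem cell derivatives on days 4, 7 and 21 of differentiation. They were Gldc, Amt, Gcsh, Dld, Shmt1, Shmt2, Mthfd2, Phgdh, Psat1 and Psph, chosen by name from 22180 genes on the array. Each had exactly 1 probe set annotated to it alone, so taking the brightest probe set per gene removed no alternative reading. A strong fall of Gldc between days 7 and 21 was already known when the set was drawn up, so the Gldc values that involve day 21 are given below as a description, without a test. The Gldc tests of day 7 against day 4 use the same day 7 arrays, so they are not independent of that knowledge. The cells carried a green fluorescent protein transgene driven by the promoter of Afp, the gene of alpha-fetoprotein, and were grown as embryoid bodies attached to gelatin in serum-containing medium. Reporter-positive cells were isolated by flow cytometry at day 4, day 7 or day 21, with 3 arrays per day and no unsorted or reporter-negative group. All 3 groups therefore share the transgene, the sort and the medium, and differ by time. The reporter reads the activity of 1 promoter, which more than 1 cell type can use, and the labels give neither the number of stem cell clones nor whether the arrays of a day came from separate cultures.

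Serine is made from a glycolytic intermediate by Phgdh, Psat1 and Psph, acting in that order. Serine hydroxymethyltransferase, cytosolic as Shmt1 and mitochondrial as Shmt2, then moves a carbon from serine to folate and leaves glycine. The glycine cleavage system, in mitochondria, takes a further carbon from glycine: Gldc decarboxylates it, Gcsh carries the remainder on a lipoyl arm, Amt passes the carbon to folate and Dld reoxidises the arm. Mthfd2 oxidises the carbon-loaded folate in mitochondria, and the carbons feed purine, thymidylate and methionine synthesis. These pathways are known for high activity in embryonic and dividing cells, and glycine cleavage also for its high activity in liver.

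Signals are given as log2 values per probe set, normalised by the authors with RMA. The array medians ran from 5.88 to 5.98. As a measure of background, the 95th percentile of 1105 olfactory receptor genes, which most cells do not express, lay between 5.91 and 6.19. The mean of each of the 10 genes was above this level on each day. Afp itself had means of 5.72 ± 0.18, 10.60 ± 0.07 and 13.07 ± 0.11 (SD, n = 3 arrays) on days 4, 7 and 21, so the gene whose promoter drove the sort was not above background in the cells labelled as sorted at day 4. Of 15 visceral endoderm markers, 10 were above background at day 4 and 15 on each later day. Such bulk arrays cannot tell fewer cells of a type from less RNA per cell.

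From day 4 to day 7, Gldc, Amt and Psph rose, whereas Shmt2 and Mthfd2, both mitochondrial folate enzymes, fell. From day 7 to day 21, Amt, Gcsh, Shmt1 and Psph fell, and Gldc went from the highest of its 3 levels to the lowest. In the first interval 5 of the 10 genes were called by limma at an adjusted p under 0.05, 3 upward and 2 downward, against 13.4% of all genes (6.98% upward, 6.47% downward). In the second, 4 of the 9 tested genes were called, 0 upward and 4 downward, against 23% of all genes (12.4% upward, 10.7% downward). Over the whole course, from day 4 to day 21, 3 of 9 were called, 0 upward and 3 downward (Shmt1, Shmt2 and Mthfd2), against 29.1% of all genes (15% upward, 14.1% downward), a share close to the background. The arrays of the 2 days did not overlap for 8 of 10 genes in the first interval (29.9% of all genes), for 6 of 9 in the second (35.5%) and for 5 of 9 over the whole course (40.4%). The median log2 change was 0.28 over the 10 genes at day 7 against day 4, where that of all genes was -0.01. Without Gldc, it was -0.36 over the 9 genes at day 21 against day 7 and -0.24 at day 21 against day 4, where those of all genes were -0.03 and -0.03. The first and second intervals share the day 7 arrays, so a rise in one and a fall in the other are not independent observations.

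**Figure D1:**
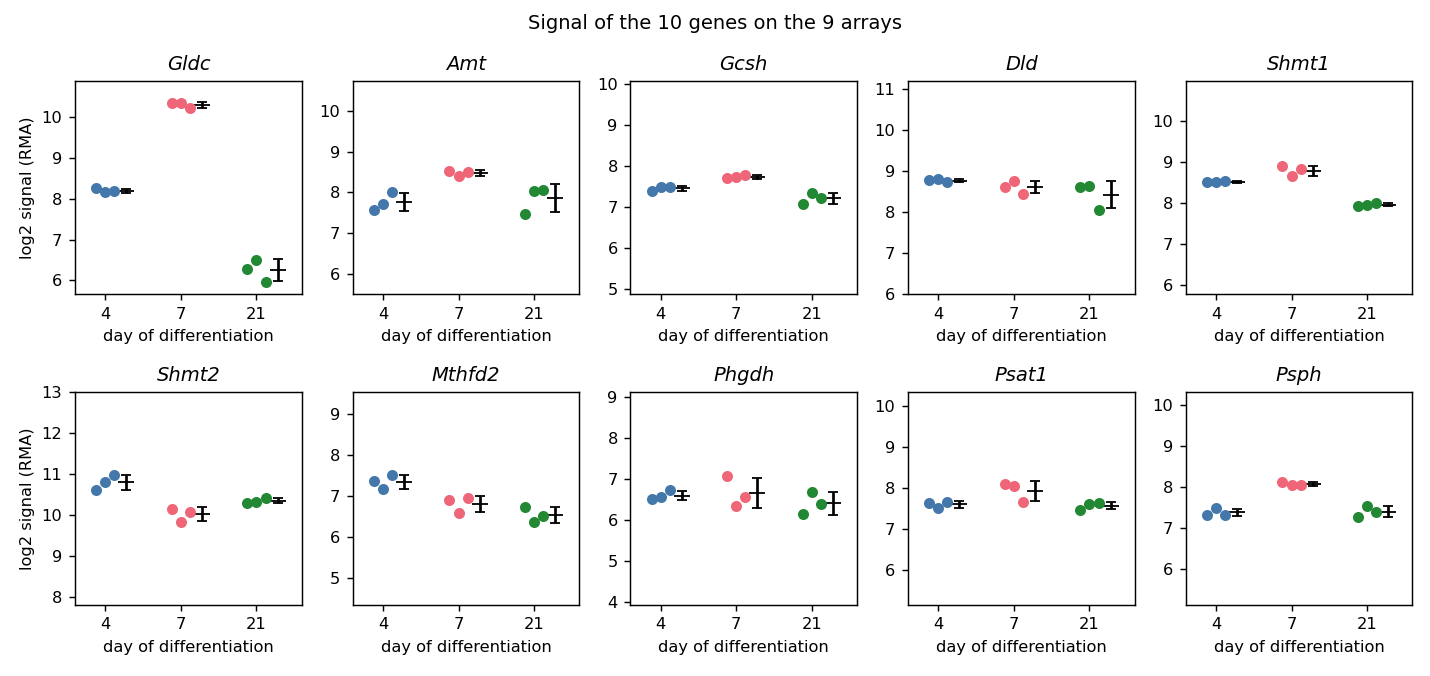
Log2 signal (vertical axis, a window of equal height in each panel) of the 10 genes on the 9 arrays, by day of differentiation. Points are arrays, and the black bar beside them is the mean with its SD (n = 3). Gldc moved from 8.19 to 10.29 and then to 6.25, while the day means of each other gene stayed within 0.83 of each other.

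The promoter windows of the 7 genes that passed at least 1 test are shown, so that genes that changed in different directions can be read side by side. RefSeq (GRCm38.p6) windows from 250 bases before to 50 bases after the gene start were found for all 10 genes, with 2 windows for Psat1, 11 in all. In the windows below, capitals mark CCAAT (the CCAAT box, bound by NF-Y) and GGGCGG (the GC box, bound by Sp and Klf factors), each searched on both strands, so that ATTGG and CCGCCC are the reverse readings. The first 5, of Gldc, Amt, Gcsh, Shmt1 and Psph, belong to genes with their highest mean at day 7, and the last 2, of Shmt2 and Mthfd2, to genes with their highest mean at day 4. Psat1 and Phgdh, which passed no test and are not shown, also had their highest mean at day 7.
Gldc (GRCm38.p6, chr19:30175392-30175691, minus strand): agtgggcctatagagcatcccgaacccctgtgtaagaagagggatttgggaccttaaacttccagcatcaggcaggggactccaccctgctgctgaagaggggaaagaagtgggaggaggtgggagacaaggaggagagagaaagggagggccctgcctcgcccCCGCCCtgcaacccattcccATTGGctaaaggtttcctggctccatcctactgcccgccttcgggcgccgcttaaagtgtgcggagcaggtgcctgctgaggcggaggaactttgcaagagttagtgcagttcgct
Amt (GRCm38.p6, chr9:108296655-108296954, plus strand): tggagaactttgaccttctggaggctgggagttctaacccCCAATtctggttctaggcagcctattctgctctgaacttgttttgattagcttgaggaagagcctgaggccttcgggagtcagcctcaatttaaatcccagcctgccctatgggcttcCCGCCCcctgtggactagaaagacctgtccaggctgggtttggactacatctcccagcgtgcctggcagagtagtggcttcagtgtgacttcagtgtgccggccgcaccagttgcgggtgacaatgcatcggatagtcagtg
Gcsh (GRCm38.p6, chr8:116993449-116993748, minus strand): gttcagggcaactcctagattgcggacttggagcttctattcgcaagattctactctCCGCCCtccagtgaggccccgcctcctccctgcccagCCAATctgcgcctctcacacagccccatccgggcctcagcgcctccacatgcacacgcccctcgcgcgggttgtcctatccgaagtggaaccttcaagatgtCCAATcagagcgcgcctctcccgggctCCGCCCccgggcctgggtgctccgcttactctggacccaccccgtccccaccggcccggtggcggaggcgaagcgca
Shmt1 (GRCm38.p6, chr11:60811216-60811515, minus strand): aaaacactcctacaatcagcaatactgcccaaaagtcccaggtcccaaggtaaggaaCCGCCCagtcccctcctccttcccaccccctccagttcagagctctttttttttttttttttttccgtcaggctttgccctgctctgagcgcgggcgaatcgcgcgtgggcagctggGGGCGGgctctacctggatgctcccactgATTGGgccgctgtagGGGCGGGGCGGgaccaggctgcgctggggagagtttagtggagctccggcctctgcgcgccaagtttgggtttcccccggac
Psph (GRCm38.p6, chr5:129787204-129787503, minus strand): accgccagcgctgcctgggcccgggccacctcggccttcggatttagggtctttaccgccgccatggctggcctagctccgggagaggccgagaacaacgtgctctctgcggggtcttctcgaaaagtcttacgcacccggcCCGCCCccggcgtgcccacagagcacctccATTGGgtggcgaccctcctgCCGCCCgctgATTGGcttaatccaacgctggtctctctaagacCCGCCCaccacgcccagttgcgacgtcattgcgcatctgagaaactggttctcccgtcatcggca
Shmt2 (GRCm38.p6, chr10:127522395-127522694, minus strand): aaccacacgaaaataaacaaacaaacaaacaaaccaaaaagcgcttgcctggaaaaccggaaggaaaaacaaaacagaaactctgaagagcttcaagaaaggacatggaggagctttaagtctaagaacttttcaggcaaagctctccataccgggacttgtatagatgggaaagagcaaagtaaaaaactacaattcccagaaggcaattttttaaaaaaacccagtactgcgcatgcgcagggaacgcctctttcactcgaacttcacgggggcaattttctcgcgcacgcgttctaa
Mthfd2 (GRCm38.p6, chr6:83317555-83317854, minus strand): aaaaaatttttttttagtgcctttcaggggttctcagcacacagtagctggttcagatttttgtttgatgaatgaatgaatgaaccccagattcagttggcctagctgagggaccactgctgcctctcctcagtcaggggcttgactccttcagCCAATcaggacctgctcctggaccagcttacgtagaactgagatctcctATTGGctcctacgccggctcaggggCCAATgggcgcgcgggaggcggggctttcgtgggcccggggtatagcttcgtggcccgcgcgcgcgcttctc

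The 11 windows held from 42.7% to 66.7% G and C, where the median of all promoter windows was 52.7%. A CCAAT box was found in 9 of the 11 windows, each of a different gene, against 37.4% of 32851 promoter windows of the same length. A GC box was found in 6 of the 11, again each of a different gene, against 35.7%. Gldc, Amt, Gcsh, Shmt1 and Psph each held both in 1 window, as did 12.8% of all windows. The Shmt2 window held neither, the Mthfd2 window held 3 CCAAT boxes and no GC box, and the windows of Dld and Phgdh each held 2 CCAAT boxes and no GC box. In Psat1, 1 window held 2 GC boxes and the other 3 CCAAT boxes. Psat1 and Phgdh thus had their highest mean at day 7 without a window that held both boxes. For Phgdh that mean was above day 4 by only 0.06, and by -0.14 without day 7 replicate 1, so its order of days is not settled. The Gldc CCAAT box begins 66 bases before the gene start, and the CCAAT boxes nearest the start of Shmt1 and Psph begin 47 and 48 bases before it. No CCAAT match overlapped a GC box, and a pair of GC boxes in the Shmt1 window overlap each other. The core of the amino acid response element bound by Atf4, TGATGNAA, was in 0 of the 11 windows (3.97% of all windows), and the E-box CACGTG bound by Myc was also in 0 (7.15% of all windows). These matches describe letters in a short window and were grouped after the expression values had been seen. The shares are over all windows, whether or not their genes were above background here, and shares among expressed genes were not computed.

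Among the glycine cleavage genes, Gldc (probe set 17363865), which encodes the decarboxylase that starts the reaction, moved most. Its log2 signals were 8.25, 8.16 and 8.18 at day 4, 10.33, 10.32 and 10.21 at day 7, and 6.29, 6.49 and 5.96 at day 21. The 3 days did not overlap, and day 7 was highest on every array. Between days 4 and 7 Gldc rose 4.27-fold, a log2 change of 2.09 ± 0.13 (SE; limma adjusted p = 2.52e-06), with 151 of the 22180 genes changing by more in either direction. The fall known beforehand rests on the same day 7 arrays, so this p-value and rank are not free of it. The day 21 mean was 16.4-fold below day 7 (log2 difference -4.04 ± 0.13) and 3.85-fold below day 4 (-1.94 ± 0.13). On the array with the lowest value, day 21 replicate 3, the signal of 5.96 was under that array's olfactory receptor level of 6.18, so the day 21 signal was near the floor and the day 21 folds are ratios of array signal to it.

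Amt (17521661), the aminomethyltransferase, was also highest at day 7, with a smaller amplitude. Its signals were 7.58, 7.71 and 8.002 at day 4, 8.52, 8.40 and 8.51 at day 7, and 7.46, 8.04 and 8.07 at day 21. All day 7 arrays lay above all others, and the day 4 and day 21 arrays overlapped. Amt rose by 0.71 ± 0.17 to day 7 (limma adjusted p = 0.0177) and fell by 0.62 ± 0.17 to day 21 (adjusted p = 0.0230). The rise no longer passed without day 4 replicate 1 (adjusted p = 0.0731), day 4 replicate 2 (0.0642), day 7 replicate 1 (0.0633) or day 7 replicate 3 (0.0600) in the limma fit, and the fall no longer passed without day 7 replicate 1 (0.0698), day 7 replicate 3 (0.0673) or day 21 replicate 1 (0.0582). Day 21 replicate 1, the array with the lowest Amt signal, also had the highest summed linear signal of 11 mesenchyme markers, 15240 against 10070 and 7467 on the other day 21 arrays. The part of this in the Amt value was not tested.

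Gcsh (17513325), the lipoyl carrier protein, had signals of 7.40, 7.49 and 7.49 at day 4, 7.71, 7.74 and 7.80 at day 7, and 7.09, 7.34 and 7.23 at day 21. Its arrays also did not overlap between any of the days, with day 7 highest. The fall to day 21 passed, at -0.53 ± 0.10 (limma adjusted p = 0.00251), while the difference between days 4 and 7, 0.29 ± 0.10, did not (adjusted p = 0.0871). Dld (17280498), which also serves the pyruvate, oxoglutarate and branched-chain ketoacid dehydrogenases, showed no call in any comparison. Its signals were 8.78, 8.79 and 8.72 at day 4, 8.61, 8.74 and 8.44 at day 7, and 8.60, 8.62 and 8.03 at day 21. The limma adjusted p was 0.614 for day 7 against day 4 (-0.17 ± 0.16), 0.485 for day 21 against day 7 (-0.18 ± 0.16) and 0.136 for day 21 against day 4 (-0.34 ± 0.16).

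The amplitude of Gldc was set against that of its partners within each array. At day 7 against day 4, the log2 difference Gldc minus Amt changed by 1.38, Gldc minus Gcsh by 1.81 and Gldc minus Dld by 2.26. For each of these pairs the 3 day 7 values lay above the 3 day 4 values. Each had a two-sided exact permutation p of 0.10, the smallest that 3 arrays against 3 allow, and 0.15 after Benjamini-Hochberg adjustment over the 9 differences tested. At day 21 against day 7 the same differences changed by -3.42, -3.51 and -3.86, given as a description. With 3 arrays a day this test cannot reach a p of 0.05, so the larger amplitude of Gldc than of its partners is read from the separate ranges alone.

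**Figure D2:**
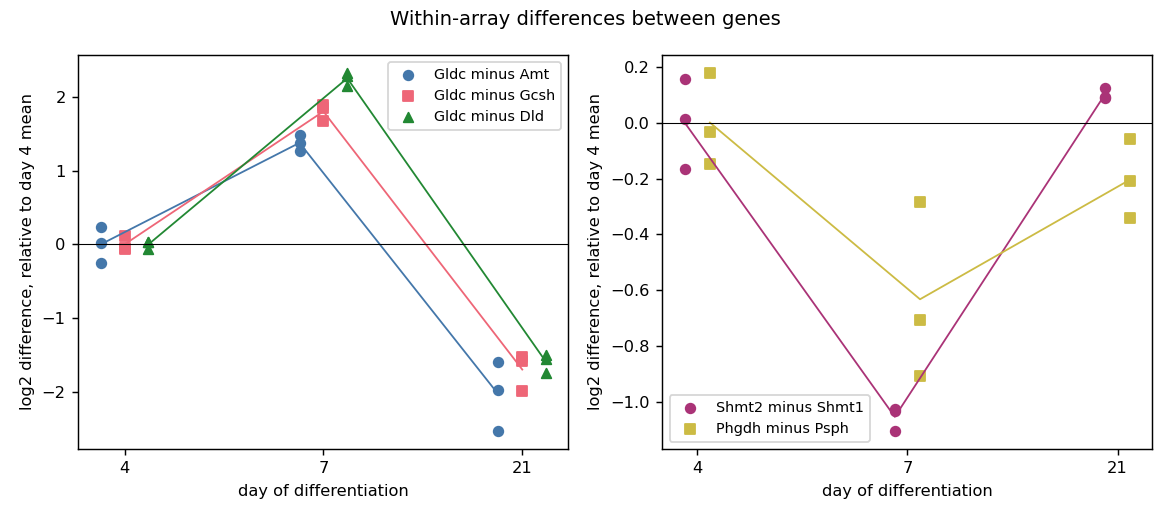
Within-array log2 differences between genes (vertical axis), relative to the day 4 mean of each pair, by day of differentiation. Points are arrays and lines join the day means. Left, the decarboxylase Gldc minus each of its partners, highest at day 7 and lowest at day 21. Right, Shmt2 minus Shmt1, which was 1.05 lower at day 7 than at day 4, and Phgdh minus Psph.

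The cytosolic and mitochondrial serine hydroxymethyltransferases did not move together. Shmt1 (17263673), the cytosolic enzyme, had signals of 8.51, 8.51 and 8.54 at day 4, 8.91, 8.67 and 8.83 at day 7, and 7.93, 7.97 and 8.02 at day 21. The 3 days did not overlap, with day 7 highest and day 21 lowest, as for Gldc. Shmt1 fell by 0.83 ± 0.09 from day 7 to day 21 (limma adjusted p = 1.05e-04) and by 0.55 ± 0.09 from day 4 to day 21 (adjusted p = 0.00122). The difference of 0.28 ± 0.09 between days 4 and 7 did not pass (adjusted p = 0.0868).

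Shmt2 (17245902), the mitochondrial enzyme, had signals of 10.61, 10.79 and 10.96 at day 4, 10.14, 9.83 and 10.07 at day 7, and 10.29, 10.32 and 10.40 at day 21. Its days did not overlap either, but in the order day 4, day 21, day 7 from high to low. Shmt2 fell by 0.77 ± 0.12 to day 7 (limma adjusted p = 0.00153) and was 0.32 ± 0.12 higher at day 21 than at day 7, which did not pass (adjusted p = 0.0861). From day 4 to day 21 it fell by 0.45 ± 0.12 (adjusted p = 0.0166), a call lost without day 4 replicate 3 (limma adjusted p = 0.0685) or day 21 replicate 1 (0.0514). The within-array difference Shmt2 minus Shmt1 changed by -1.05 from day 4 to day 7 and by 1.15 from day 7 to day 21. In both cases the groups did not overlap (two-sided exact permutation p = 0.10, adjusted 0.15), and the difference between days 4 and 21 was 0.10 (p = 0.40, adjusted 0.40).

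Mthfd2 (17468143), the mitochondrial methylenetetrahydrofolate dehydrogenase, was highest at day 4. Its signals were 7.36, 7.16 and 7.50 at day 4, 6.89, 6.57 and 6.93 at day 7, and 6.73, 6.36 and 6.50 at day 21. All day 4 arrays lay above all later arrays, and days 7 and 21 overlapped. Mthfd2 fell by 0.54 ± 0.14 to day 7 (limma adjusted p = 0.0300) and by 0.81 ± 0.14 from day 4 to day 21 (adjusted p = 0.00150). The first of these calls was lost in the limma fit without day 4 replicate 1 (adjusted p = 0.0867), day 4 replicate 3 (0.115), day 7 replicate 1 (0.0567) or day 7 replicate 2 (0.105). The change from day 7 to day 21, -0.27 ± 0.14, did not pass (adjusted p = 0.231). Without day 4 replicate 1 or day 7 replicate 1, when both Amt and Mthfd2 lost their calls, the number of the 10 genes called between days 4 and 7 dropped from 5 to 3.

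**Figure D3:**
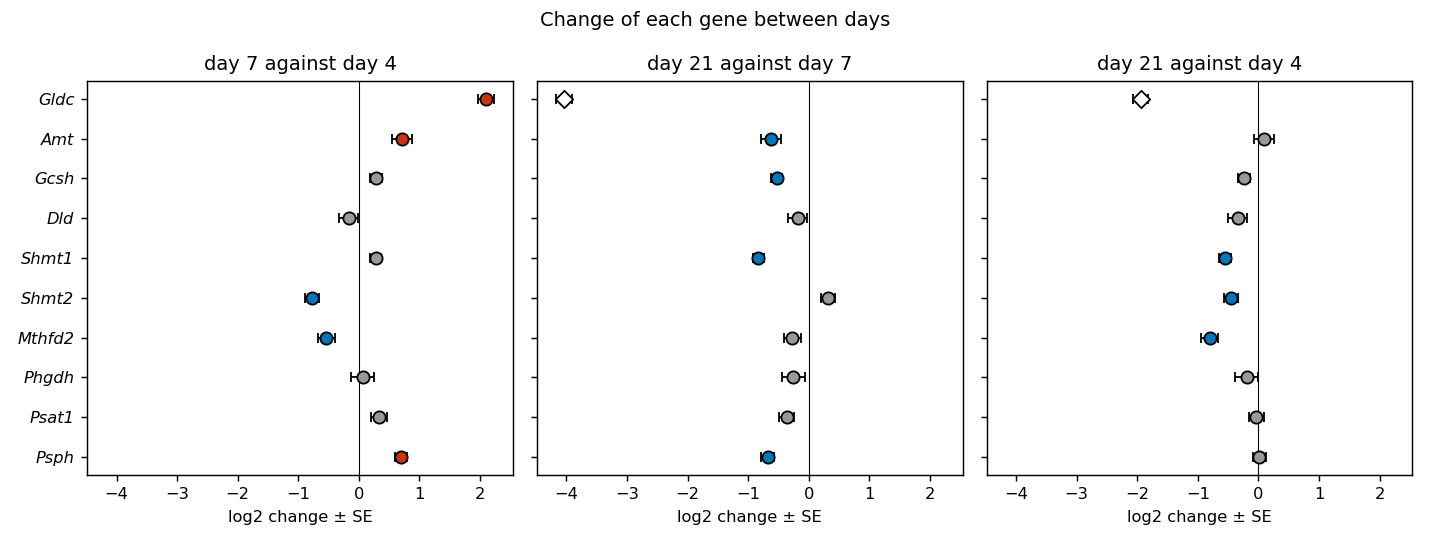
Log2 change of each gene with its SE (horizontal axis) in the 3 comparisons of days, from the fit of 9 arrays. Red circles rose, blue circles fell and grey circles did not pass an adjusted p of 0.05, and open diamonds (Gldc against day 21) were not tested. In the first panel Gldc, Amt and Psph are red and Shmt2 and Mthfd2 blue, and in the second Shmt2 alone lies right of 0, at 0.32.

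Of the 3 enzymes of serine synthesis, only the last passed a test. Psph (17453124), the phosphoserine phosphatase that releases serine, had signals of 7.33, 7.50 and 7.33 at day 4, 8.14, 8.05 and 8.05 at day 7, and 7.27, 7.54 and 7.39 at day 21. All day 7 arrays were higher than all others, and days 4 and 21 overlapped. Psph rose 1.62-fold to day 7 (0.69 ± 0.10, limma adjusted p = 0.00113) and fell again to day 21 (-0.68 ± 0.10, adjusted p = 7.51e-04). At day 21 it differed from day 4 by 0.01 ± 0.10 (adjusted p = 0.939), a value whose sign turned when the arrays were shifted to 1 median.

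Psat1 (17363204), the phosphoserine aminotransferase, also had its highest mean at day 7, with smaller differences. Its signals were 7.64, 7.51 and 7.64 at day 4, 8.08, 8.04 and 7.65 at day 7, and 7.46, 7.60 and 7.63 at day 21. Day 7 replicate 3, at 7.65, lay just above the highest arrays of the other days, and the other day 7 arrays stood clear of them. The log2 differences of 0.33 ± 0.13 at day 7 against day 4 (limma adjusted p = 0.128) and -0.36 ± 0.13 at day 21 against day 7 (0.0642) did not pass. Without day 7 replicate 3 both passed in the limma fit, at 0.47 (adjusted p = 0.0245) and -0.50 (0.0108). Phgdh (17408273), the dehydrogenase that commits carbon to serine, gave no call. Its signals of 6.50, 6.55 and 6.71 at day 4, 7.06, 6.34 and 6.55 at day 7, and 6.13, 6.68 and 6.38 at day 21 overlapped between all days and lay not far above background. The limma adjusted p was 0.905, 0.411 and 0.531 for its changes of 0.06 ± 0.19, -0.25 ± 0.19 and -0.19 ± 0.19 at day 7 against day 4, day 21 against day 7 and day 21 against day 4. The difference Phgdh minus Psph changed by -0.63 to day 7, with no overlap between the days (two-sided exact permutation p = 0.10, adjusted 0.15).

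Across the 9 arrays the signals of Gldc and Shmt1 had a Pearson correlation of 0.956, those of Gldc and Gcsh one of 0.953 and those of Amt and Psph one of 0.886. Shmt2 and Psph had the lowest value, -0.734, and Shmt2 and Mthfd2 had 0.690. The arrays form 3 days of 3, so these values describe the order of the days and carry no test. Of 2284 other named genes whose day means spanned at least 1 log2 unit, the 5 most like Gldc by Pearson correlation over the 9 arrays were Ly75 (0.994), Slc16a1 (0.992), Tbx3 (0.991), Pilra (0.991) and Arid3c (0.990). Slc16a1, a monocarboxylate transporter, had day means of 10.40, 11.80 and 8.67, and Tbx3, a T-box transcription factor, 8.26, 9.83 and 7.09. Among genes with the same span of at least 1 log2 unit, those most like Phgdh reached lower values. These were 0.726 for Amer3, 0.702 for H2ac21, 0.648 for Fancb, 0.642 for Mogat2 and 0.640 for Qprt. The day means of Phgdh itself spanned only 0.25, so genes as flat as Phgdh were left out of this search. The lower values therefore do not show that Phgdh lacks close matches on the array.

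The wider folate cycle was counted in the same way. Over all genes, 13.4% were called at day 7 against day 4, 23% at day 21 against day 7 and 29.1% at day 21 against day 4. Of 17 measured genes of folate uptake and interconversion, 3 rose and 0 fell between days 4 and 7 (median log2 change 0.05), 2 rose and 3 fell between days 7 and 21 (-0.16), and 4 rose and 5 fell between days 4 and 21 (0.04). Folr1, a folate receptor, rose from 6.28 ± 0.45 to 8.23 ± 0.15 at day 7 (1.94 ± 0.20, limma adjusted p = 7.98e-05), and Folr2 rose from 5.58 ± 0.22, below background, to 6.63 ± 0.21 (1.05 ± 0.15, adjusted p = 6.84e-04). Both receptors thus rose in the same interval as Gldc. Ggh, which trims the glutamate tail of folates, rose by 1.43 ± 0.11 between days 7 and 21. Mthfd1, the cytosolic trifunctional enzyme, fell by 0.72 ± 0.09 in that interval (adjusted p = 2.21e-04) and changed by 0.07 ± 0.09 before it. The count of folate genes that fell from day 7 to day 21 was 1 without day 7 replicate 1 or day 21 replicate 1, and that to day 7 was 1 without day 4 replicate 3.

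Of 14 methionine cycle and transsulfuration genes, 0 rose and 3 fell to day 7 (median -0.15), 3 rose and 2 fell from day 7 to day 21 (0.06), and 3 rose and 5 fell from day 4 to day 21 (-0.20). The shares of all genes called in these comparisons were 13.4%, 23% and 29.1%. Cth, cystathionine gamma-lyase, fell from 8.01 ± 0.17 at day 4 to 6.23 ± 0.01 at day 7 and 5.60 ± 0.26 at day 21, a log2 change of -2.42 ± 0.14 over the course (limma adjusted p = 7.24e-07). The day 21 mean was below background. Ahcy, which clears S-adenosylhomocysteine, fell by 1.13 ± 0.12 from day 4 to day 21. The enzymes that demethylate dimethylglycine and sarcosine, both of which pass their carbon to folate, went opposite ways: Dmgdh fell by 1.17 ± 0.14 and Sardh rose by 1.01 ± 0.13 over the same span, with Dmgdh below background at days 7 and 21 and Sardh at days 4 and 7.

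Purine synthesis, a main consumer of the carbons, fell over the course. Of 11 measured genes, 2 fell and 0 rose to day 7 (median -0.25), 5 fell and 2 rose from day 7 to day 21 (-0.30), and 9 fell and 0 rose from day 4 to day 21 (-0.65), the last against 14.1% of all genes downward. Ppat, the committing amidotransferase, fell by 1.29 ± 0.10 between days 4 and 21 (limma adjusted p = 4.98e-06). Over the same span the log2 change was -0.999 ± 0.10 for Paics, which adds carbon dioxide and aspartate to the growing ring, -0.90 ± 0.11 for Gmps, which makes GMP, and -0.94 ± 0.14 for Prps1, which makes the ribose donor. Most of the fall of Ppat came after day 7 (-1.06 ± 0.10), and most of that of Prps1 before it (-0.74 ± 0.14). Proliferation genes moved alongside: 4 of 15 fell to day 7 (median -0.25), 11 of 15 from day 7 to day 21 (-0.69) and 15 of 15 from day 4 to day 21 (-0.99), with 0 rising in each. Over all genes, 6.47%, 10.7% and 14.1% were called downward in these comparisons. Bub1, a spindle checkpoint kinase, fell by 1.66 ± 0.14, Rrm2, a ribonucleotide reductase subunit, by 1.41 ± 0.13, and the helicase subunits Mcm5 and Mcm2 by 1.27 ± 0.11 and 1.25 ± 0.09 over the course. From day 7 to day 21 the 2 purine rises became 1 without day 4 replicate 1, day 4 replicate 3 or day 21 replicate 1, and 0 without any 1 of the day 7 arrays or day 21 replicate 2. The 4 proliferation falls to day 7 became 2 without day 4 replicate 3. The part of cell division in the changes of the 10 enzymes was not tested.

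**Figure D4:**
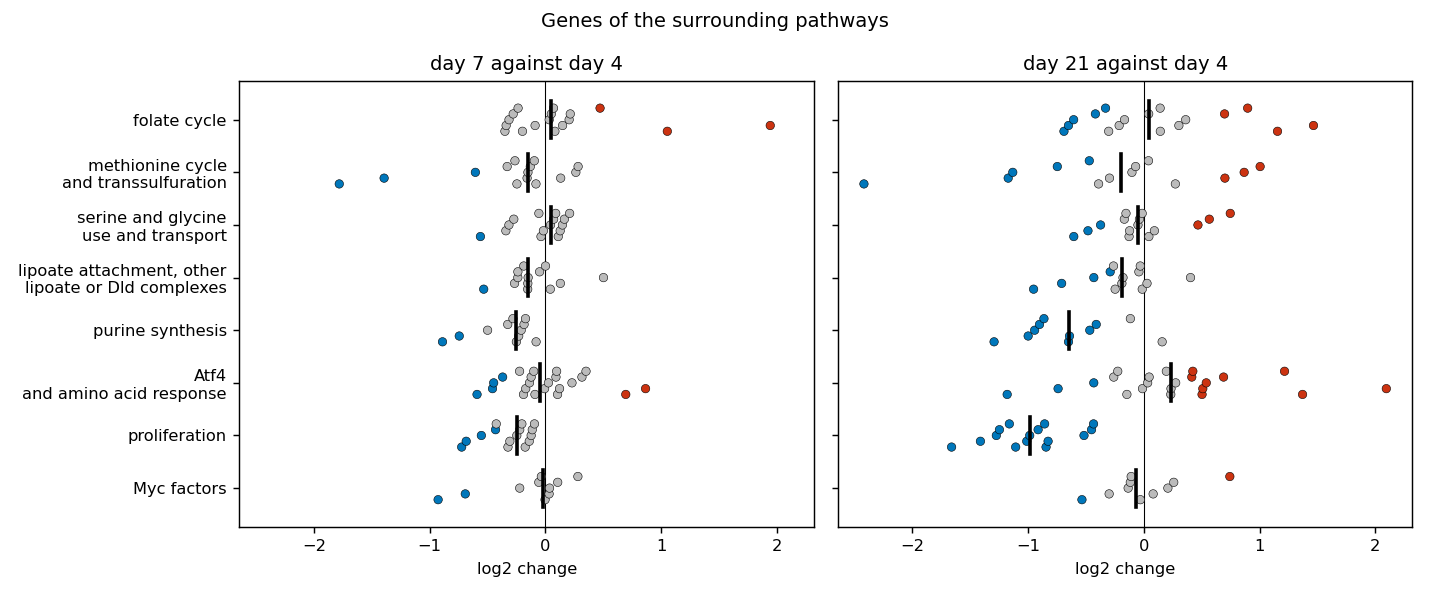
Log2 change (horizontal axis) of the measured genes of 8 lists around the 10 enzymes, at day 7 and at day 21 against day 4, each point a gene and each vertical bar the list's median. Red points rose, blue points fell and grey points did not pass. Purine synthesis and proliferation have medians of -0.65 and -0.99 in the right panel.

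Genes of the Atf4 and amino acid response, a program known to include serine synthesis enzymes, divided. Of 22 measured, 2 rose and 4 fell to day 7 (median -0.05), 8 rose and 3 fell from day 7 to day 21 (0.06), and 9 rose and 3 fell from day 4 to day 21 (0.23), against 15% of all genes upward. Asns, asparagine synthetase, fell by 0.45 ± 0.09 to day 7 and by a further 0.73 ± 0.09 to day 21, while Ddit3, a stress transcription factor, rose by 1.22 ± 0.12 from day 4 to day 21. Slc7a11, the cystine transporter, and Nupr1, a stress response protein, rose by 2.10 ± 0.20 and 1.37 ± 0.20 over the same span, Slc7a11 from below background at days 4 and 7. Of 10 Myc network genes, 0 rose and 2 fell to day 7 (median -0.02), 3 rose and 0 fell from day 7 to day 21 (0.05), and 1 rose and 1 fell from day 4 to day 21 (-0.07). For both lists, the shares of all genes called in the 3 comparisons were 13.4%, 23% and 29.1%. Myc fell by 0.93 ± 0.10 to day 7 (limma adjusted p = 1.01e-04) and then rose by 0.39 ± 0.10, the order of days also seen for Shmt2. Mycl fell by 0.69 ± 0.13 to day 7, when its mean was below background, and Mxd4 rose by 0.75 ± 0.14 from day 7 to day 21. The 4 falls of Atf4 response genes to day 7 became 2 without day 4 replicate 1 or 2 and 1 without day 7 replicate 1. From day 4 to day 21, 2 Myc network genes fell without day 21 replicate 3 and 2 rose without day 21 replicate 2.

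Of 15 genes of serine and glycine use and transport, 0 rose and 1 fell to day 7 (median 0.05), 3 rose and 0 fell from day 7 to day 21 (-0.03), and 3 rose and 3 fell from day 4 to day 21 (-0.05). Srr, serine racemase, rose by 0.75 ± 0.13 over the course and Alas1, which condenses glycine in heme synthesis, by 0.57 ± 0.09. The transporters Slc38a2 and Slc1a5 fell by 0.60 ± 0.12 and 0.37 ± 0.13, the latter with a limma adjusted p of 0.0499. Of 13 genes of lipoate attachment and of the other complexes that use lipoate or Dld, 1, 2 and 4 fell in the same 3 comparisons and 0 rose (medians -0.15, -0.10 and -0.19). Beside both lists stand the shares of all genes called, 13.4%, 23% and 29.1%. Bckdhb of the branched-chain complex fell by 0.95 ± 0.12 and Dhtkd1 by 0.71 ± 0.11 from day 4 to day 21, and Pdhx and Pdha1 of the pyruvate complex by 0.43 ± 0.10 and 0.29 ± 0.10. The 3 serine and glycine use genes that fell from day 4 to day 21 became 1 without any 1 of the day 4 arrays or without day 21 replicate 1 or 3. The single fall to day 7 was lost without day 4 replicate 2, day 7 replicate 1 or day 7 replicate 3, and 1 gene fell from day 7 to day 21 without day 21 replicate 2. Of the lipoate list, 1 gene in place of 2 fell from day 7 to day 21 without any 1 of the day 7 arrays or day 21 replicate 2, and 1 rose to day 7 and 1 from day 4 to day 21 without day 4 replicate 2.

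Markers of several cell types moved with the days on which the 10 enzymes changed. The summed linear signal of 15 visceral endoderm markers, among them Apob and Afp, was 2112 to 2461 on the day 4 arrays, 22730 to 24060 at day 7 and 15020 to 16900 at day 21. Of these 15 markers, 14 rose and 0 fell to day 7, against 6.98% of all genes upward and 6.47% downward. The visceral endoderm sum was highest at day 7, as were Gldc, Amt and Psph. From day 7 to day 21, 1 of these markers rose and 13 fell, against 12.4% of all genes upward and 10.7% downward. Afp rose by 2.47 in that interval to 13.07, the brightest of the list, so it weighs most in the day 21 sum. The sum of 10 cardiac muscle markers, among them Tnnc1 and Tnnt2, was also highest at day 7, at 3066 to 3456 against 1116 to 1211 and 1436 to 1546 at days 4 and 21. Of these 10 markers, 4 rose and 0 fell to day 7, against 6.98% of all genes upward. A linear sum weighs the brightest gene most, in the cardiac list Tnnc1, at 10.89 against 8.38 for Tnnt2 at day 7. Tnnt2 itself was not highest at day 7, with a mean of 8.53 at day 21. At day 21, when Gldc was lowest, the sums of 11 mesenchyme markers (7467 to 15240, with Dcn and Col1a1), 9 stratified and barrier epithelium markers (13480 to 15330, among them Krt15 and Cldn4) and 15 hepatocyte markers (7264 to 8993, among them Alb and Vtn) were far above their day 7 ranges of 1018 to 1268, 895.6 to 1057 and 833.8 to 881.3. At day 4 these 3 sums were 1947 to 2070, 900.1 to 1372 and 600.0 to 624.4. Of the hepatocyte markers, 7 of 15 were above background at day 21 and 0 at day 4.

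The sums of 13 pluripotency markers, among them Tfcp2l1 and Nanog, were 1191 to 1657, 1884 to 2140 and 1422 to 1614 on days 4, 7 and 21. Those of 10 neural markers, among them Stmn2 and Ncam1, were 1626 to 1997, 984.6 to 1010 and 914.6 to 1098, and those of 10 endothelial and blood markers, among them Cd68 and Kdr, 1144 to 1428, 1466 to 1566 and 1176 to 1372. Each of these 3 sums mixes directions. To day 7, 2 pluripotency markers rose and 3 fell, with Tfcp2l1 up by 3.08 and Nanog down by 1.04. In that interval 1 neural marker rose and 4 fell. Of the endothelial and blood markers 4 rose and 1 fell, with Cd68 up by 0.89 and Kdr down by 0.81. All genes were called at 6.98% upward and 6.47% downward. The neural sum, like the Mthfd2 signal, was highest at day 4. Array signals do not reach 0, and none of these markers was listed at 0. The part of changing cell types in the signals of the 10 enzymes was not tested.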

How the data were processed

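Total RNA (500 pg) from reporter-sorted cells was amplified and labelled with the Affymetrix WT Pico kit, per the labels' protocols. The authors deposited 1 log2 signal per probe set and array. The submitters' processing notes name RMA and Affymetrix Expression Console without versions. This method brings the arrays close to 1 distribution (array medians of 5.88 to 5.98), so a shift shared by all transcripts would be largely removed.

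Of 34365 probe sets, 23521 carried 1 gene symbol, 1814 several and 9030 none in the platform annotation, and 23328 were matched by Entrez number to RefSeq (GRCm38.p6). The brightest probe set per gene, by mean over the 9 arrays, left 22180 genes. A mean per day was fitted with limma 3.58.1 in R 4.3.3 (lmFit, eBayes, two-sided, Benjamini-Hochberg over all genes). SE comes from this fit. These p-values reflect the spread between arrays of a day, which may be technical only. In simulated data for day 7 against day 4 (22180 genes, 50 changed at each size of 0.5, 1, 2 and 4), 18% of log2 changes of 0.5 and 96% of changes of 1 were recovered. Far fewer genes changed there than the 2983 called in the data. The adjusted p was thus harder to pass in the simulation, and these shares do not give the recovery in the data.

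The 10 genes and 16 lists of pathway genes and markers (210 of 227 genes measured) were chosen with earlier results of these data known. Named list genes are the up to 4 called genes with the largest change, or the 2 brightest markers. Alternatives were other scalings, probe rules, filters and models of the spread, a replicate block, the 2 days alone and leaving out each array.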

Additional observations from a re-analysis of the deposited data

How the results depend on the processing

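Each of the 10 genes was refitted under 16 alternatives. Gldc, Psph and Shmt2 between days 4 and 7, Gcsh, Shmt1 and Psph between days 7 and 21, and Shmt1 and Mthfd2 between days 4 and 21 kept direction and call in all of them. The number of genes called between days 4 and 7, 5 of 10, ranged from 3 to 5 when 1 array was left out. With only genes above the olfactory receptor level in the fit (12369 genes), Gcsh (adjusted p = 0.0410) and Shmt1 (0.0410) also passed between days 4 and 7. Both the number of genes and the SE were smaller in that fit (for Gcsh 0.0942 against 0.0972), and their parts were not separated. Shmt2 and Psat1 passed between days 7 and 21 with that filter (0.0448 and 0.0316), with quantile normalization repeated (0.0350 and 0.0298) and with limma's trend and robust options (0.0410 and 0.0495), and Gcsh between days 4 and 21 with that filter (0.0491) and with quantile normalization (0.0467). The cause of these later shifts was not tested. Of 768 counts over the pathway lists, 717 stayed within 1.5 times the main count. Signs turned only for changes that did not pass. Psph at day 21 against day 4 became -0.011 with arrays shifted to the same median and -0.0385 with quantile normalization repeated. With 1 array left out, Psph ranged there from -0.0555 to 0.0791, Psat1 from -0.0767 to 0.0200 and Amt from -0.0114 to 0.292. Phgdh at day 7 against day 4 ranged from -0.143 to 0.215, and Dld at day 21 against day 7 from -0.279 to 0.0137. Arrays give no counting depth.

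The replicate numbers of the labels were used as a block in 1 alternative. Deviations of same-numbered arrays from their day means correlated at -0.0541 to 0.263, and those of differently numbered arrays at -0.176 to 0.0742. Between days 7 and 21, same-numbered arrays correlated at 0.078, 0.139 and 0.263, each above every differently numbered pair of those days. The labels do not say that the numbers pair samples, so the main fit had no block. With the replicate block 5, 4 and 3 of the genes were called in the 3 comparisons, as without it, and 2895, 5041 and 6413 of all genes against 2983, 5106 and 6448.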
